A study of Mus musculus with 2 samples.

Results

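The granule neuron genes described here are 9 listed genes of the cerebellar granule neuron, *Cbln1*, *Cbln3*, *Neurod1*, *Fat2*, *Zic1*, *Zic2*, *Etv1*, *Calb2* and *Reln*. They were taken by name from the count matrices, and 8 of the 9 were among the 19465 genes measured. *Etv1* was not analysed here. All 8 passed the filter on low counts in each comparison. On GRCm38 the genes of the secreted cerebellins lie at chr8:87468853-87472592 (*Cbln1*, ENSMUSG00000031654) and chr14:55878920-55884256 (*Cbln3*, ENSMUSG00000040380), and those of the transcription factors at chr2:79452637-79456636 (*Neurod1*, ENSMUSG00000034701), chr9:91358058-91365768 (*Zic1*, ENSMUSG00000032368) and chr14:122475384-122480328 (*Zic2*, ENSMUSG00000061524). *Fat2* (ENSMUSG00000055333) spans chr11:55250609-55337505, *Calb2* (ENSMUSG00000003657) chr8:110142526-110168212 and *Reln* (ENSMUSG00000042453) chr5:21884454-22344705.

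Both samples were single formalin-fixed sections of mouse cerebellum, each carrying a breast tumor grown from injected organoids. The organoids came from mammary tumors of the HP genotype, with activating mutations of HER2 and PIK3CA switched on by an adenovirus carrying Cre, and were luciferase-labeled clones placed into untreated, syngeneic, adult C57BL/6J mice. Replicate 1 (section 1) is labeled HP-F1 and replicate 2 (section 2) is labeled HP-B6, while both labels give the same genotype, tissue and lack of treatment. There was 1 condition with n = 2 sections and no tumor-free cerebellum, so the regions of each section were compared with each other, and injection into the brain leaves out the earlier steps of metastasis.

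Granule neurons are the small, densely packed excitatory neurons of the inner layer of the cerebellar cortex. Their axons, the parallel fibers, run through the molecular layer and synapse on Purkinje cell dendrites. They arise from precursors of the rhombic lip, whose transcription factors stay on in the mature neuron in part. Several of the members are not particular to the granule neuron. Calretinin, the product of *Calb2*, is also made by unipolar brush cells and by neurons of the brainstem.

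Transcripts were counted with the Visium CytAssist assay, in which pairs of probes against mouse genes are captured on a hexagonal array of barcoded spots. A spot covers several cells, often of different types. The count is of unique molecular identifiers (UMIs). Section 1 had 3406 spots with 63986887 UMIs and section 2 had 4017 spots with 71878333 UMIs, of which 3315 and 3999 spots passed the minimum of 500 UMIs and 10 genes. Tumor spots were those where epithelial and stromal markers outweighed neural markers, in connected groups. The edge was the non-tumor tissue within 3 array steps of the tumor, and neural tissue lay 4 or more steps away. These regions held 848, 185 and 2282 spots in section 1 and 1074, 274 and 2642 in section 2. No member was among the markers.

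The tumors of the 2 sections differed in their markers. Levels not scaled by a model are given as unscaled CPM, the UMIs of a gene or list for every 1000000 UMIs of all genes in the same spots. Summed over 9 epithelial markers, section 1 had 45.6 unscaled CPM in its tumor and section 2 had 10658, and over 9 stromal markers the sums were 62186 and 3338. The defining markers of epithelium were thus near 0 in section 1, and each value that rests on the tumor is given by section. Median UMIs per spot were 51762 and 37863 in the tumor, 14700 and 13590 at the edge and 7372 and 9522 in neural tissue of sections 1 and 2.

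**Figure D1:**
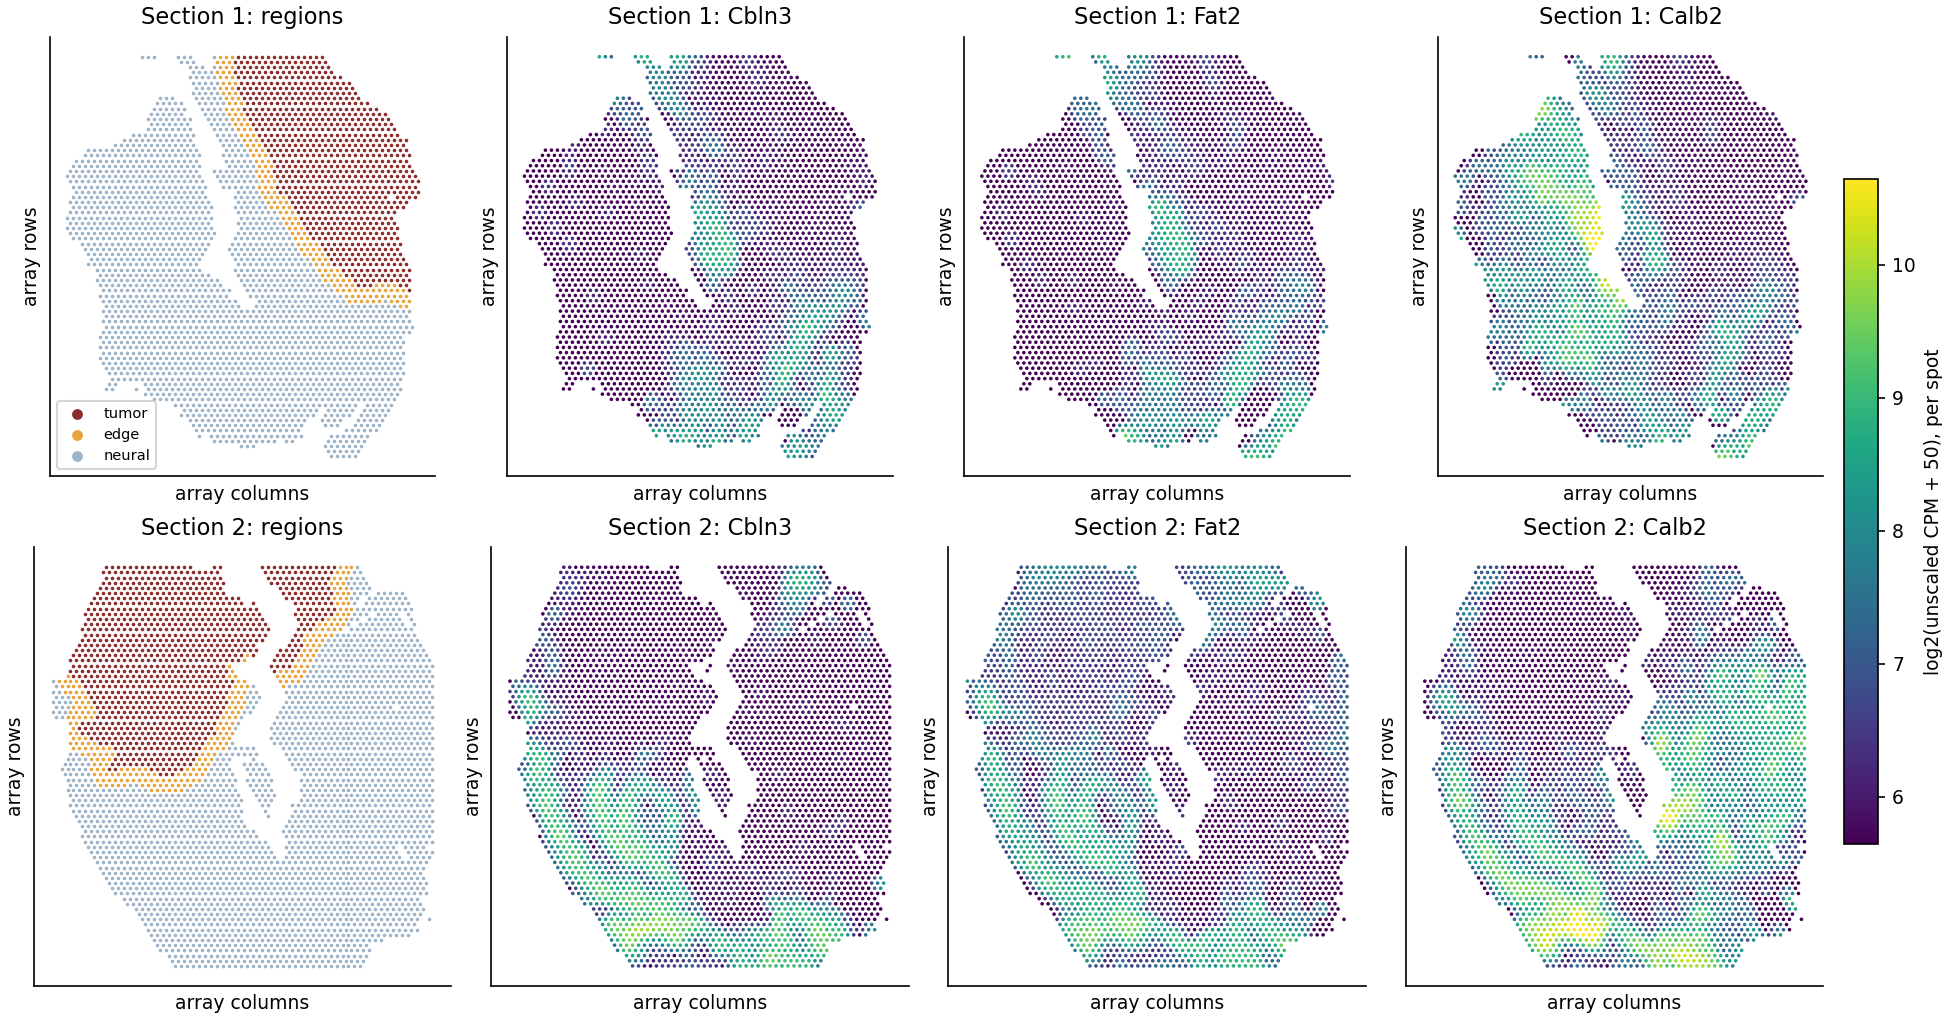
Maps of sections 1 (top) and 2 (bottom) on the spot array, with the regions drawn from markers (left) and *Cbln3*, *Fat2* and *Calb2* as log2(unscaled CPM + 50) of each spot. *Cbln3* and *Fat2* followed the folds of the cerebellar cortex, *Fat2* was also present over the tumor of section 2, and *Calb2* was high on the side of the brainstem too.

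The maps of *Cbln3*, *Fat2* and *Calb2* show where the granule neuron genes lay before any region is compared. The tissue was split into 3 classes by genes that are not members. Brainstem-marked spots were those where 5 brainstem markers outweighed 14 granule reference markers and 8 Purkinje markers. Granule-rich spots were those with a high share of *Gabra6*, *Gabrd*, *Slc17a7* and *Grin2c*, genes of the synapses of mature granule neurons, in the spot and its neighbors. These genes are also among the 14 reference markers. A spot that met both rules was put in the brainstem-marked class here, and the rest are called other spots. In neural tissue the classes held 756 granule-rich, 415 other and 1111 brainstem-marked spots in section 1 and 1226, 428 and 988 in section 2.

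*Cbln1* encodes a secreted C1q-like protein that joins parallel fibers to Purkinje cells, and it was found at 669 and 1027 unscaled CPM in the granule-rich neural spots of sections 1 and 2. It was at 249 and 158 in other spots and at 195 and 155 in brainstem-marked spots. *Cbln3*, whose product is secreted together with cerebellin 1, had 193 and 320 unscaled CPM in granule-rich spots against 6.18 and 3.92 in brainstem-marked spots. Of this pair, *Cbln3* marked the granule-rich tissue more sharply in both sections.

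*Neurod1*, a basic helix-loop-helix transcription factor needed for granule neurons to mature, had 309 and 611 unscaled CPM in granule-rich spots and 15.5 and 19.6 in brainstem-marked spots. The zinc finger transcription factors *Zic1* and *Zic2*, which act early in the granule lineage, had 578 and 794 and 129.6 and 209.8 unscaled CPM in granule-rich spots. In brainstem-marked spots they were at 51.7 and 46.6 for *Zic1* and 12.1 and 14.9 for *Zic2*. *Fat2*, an atypical cadherin of the parallel fibers, had 187 and 276 in granule-rich spots and 5.99 and 8.36 in brainstem-marked spots. *Reln* encodes the secreted protein reelin, and its levels were 248 and 238 against 22.7 and 22.0.

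*Calb2* was the exception among the 8 members. Its level in brainstem-marked spots was 301 unscaled CPM for section 1 and 213 for section 2, and in granule-rich spots it was 173 and 417, so the order of the classes turned between sections. In other spots it had 71.5 and 118 unscaled CPM. Brainstem markers had an r of 0.35 and 0.05 with *Calb2* over the non-tumor spots of sections 1 and 2, and of -0.65 to -0.31 and -0.73 to -0.55 with the other members, as a description.

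Across the non-tumor spots the members followed each other closely, again except for *Calb2*, with pairwise r among the other 7 from 0.58 to 0.86 in section 1 and from 0.78 to 0.95 in section 2. Levels were smoothed over each spot and its neighbors as log2(unscaled CPM + 50), over 2467 spots of section 1 and 2916 of section 2, which share libraries, depth and neighbors, so the correlations are descriptions only. Pearson's r between *Cbln3* and *Neurod1* was 0.86 in section 1 and 0.95 in section 2. With *Calb2*, the r of *Cbln3* was -0.0043 and 0.43. Against the summed granule reference markers, the r of *Calb2* was 0.18 and 0.55, while those of the other 7 members lay between 0.69 and 0.81 in section 1 and between 0.73 and 0.85 in section 2.

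By the rule of the highest r in the section where it was lower, among 10950 genes, the pattern most like that of *Cbln3* was that of *Neurod1*, followed by *Fat2* (0.85 and 0.93) and the Rac regulator *Chn2* (0.83 and 0.92). *Cbln1* had *Chn2*, *Neurod1* and *Cbln3* nearest, with the first at 0.68 and 0.85. *Zic1* had *Cbln3*, *Neurod1* and *Nrep* nearest and *Zic2* had *Cbln3*, *Fat2* and *Zic1*. *Neurod1* was nearest to *Cbln3*, *Fat2* and *Nrep*, *Fat2* to *Cbln3*, *Neurod1* and *Chn2*, and *Reln* to *Fat2*, *Cbln3* and *Chn2*. For *Calb2* the nearest were *Rtn1* (0.59 and 0.63), *Gprasp1* (0.56 and 0.56) and *Dpp10* (0.52 and 0.54), none of them a member or a reference marker. The sum of the members was nearest to *Zic1*, *Cbln1* and *Neurod1*, which are part of it.

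*Cbln3* and *Neurod1* were the pair of members with the closest maps, and their promoter windows are shown for that reason. The windows run from 250 bases before to 50 bases after a transcription start in RefSeq, GRCm38.p6, both on the minus strand, at chr14:55884207-55884506 for *Cbln3* and chr2:79456587-79456886 for *Neurod1*. Capitals mark the E-box letters CANNTG, the core read by basic helix-loop-helix factors, which is the same on both strands.
Cbln3: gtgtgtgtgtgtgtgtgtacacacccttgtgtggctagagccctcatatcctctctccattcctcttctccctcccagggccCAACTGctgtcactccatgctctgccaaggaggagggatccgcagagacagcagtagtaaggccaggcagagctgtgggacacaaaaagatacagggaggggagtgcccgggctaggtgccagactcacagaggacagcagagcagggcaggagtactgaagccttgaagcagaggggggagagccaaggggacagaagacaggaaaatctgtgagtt
Neurod1: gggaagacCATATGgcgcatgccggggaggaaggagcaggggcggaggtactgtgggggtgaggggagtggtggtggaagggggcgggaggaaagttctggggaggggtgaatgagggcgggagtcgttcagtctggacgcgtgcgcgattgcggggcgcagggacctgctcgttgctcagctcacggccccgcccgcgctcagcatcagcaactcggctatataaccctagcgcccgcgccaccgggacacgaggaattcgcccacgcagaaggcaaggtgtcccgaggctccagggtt
Each window held 1 E-box, as did those of *Fat2*, *Reln* and *Zic1*, the other members with a window, and 72.3% of the 32851 promoter windows held at least 1. The form CAGCTG, one of the E-box forms, was in 0 of these 5 windows and in 16.3% of all windows. The form CAGATG, also an E-box, was searched on both strands and likewise found in 0 of the 5, against 17.2% of all. The window given for *Fat2*, at chr11:55312208-55312507, starts from a site inside the gene span and not from its outer end. A match describes the letters of the window and not a bound site.

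The comparison of the edge with neural tissue addressed whether granule neuron transcripts differ in the cerebellum next to the tumor. UMIs were summed by section and region and scaled by TMM, and CPM below without further words means these scaled counts. *Cbln1* had 235 and 398 CPM at the edge of sections 1 and 2 and 318 and 612 in neural tissue, lower at the edge in both. The log2 fold change was -0.53 with an SE of 0.22 and a Benjamini-Hochberg adjusted p of 0.26 (edgeR's quasi-likelihood test). *Cbln3* had 70.7 and 116 CPM at the edge and 62.7 and 172 in neural tissue, so the sections went in opposite directions.

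Among the transcription factors, *Neurod1* had 132 and 179 CPM at the edge and 103.7 and 335 in neural tissue. *Zic2* had 67.7 and 82.0 against 47.6 and 120.1 CPM. Both were higher at the edge in section 1 and lower there in section 2. *Zic1* had 198 and 255 CPM at the edge and 212 and 453 in neural tissue, and its log2 fold change was -0.47 (SE 0.26, adjusted p = 0.40, edgeR's quasi-likelihood test).

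*Fat2* had 54.1 and 116 CPM at the edge and 59.9 and 151 in neural tissue. *Reln* had 84.7 and 84.9 against 86.5 and 136 CPM. Both were lower at the edge in each section, by less than 0.04 on the log2 scale for *Reln* in section 1. *Calb2* differed most of the members, with 72.8 and 62.5 CPM at the edge and 203 and 304 in neural tissue, lower at the edge in both sections. Its log2 fold change was -1.85 (SE 0.33), or 3.61-fold lower, with an adjusted p of 0.091 in edgeR's quasi-likelihood test, above the limit of 0.05.

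Thus 0 of the 8 members were called by edgeR for edge against neural tissue, where 0 (percent called, 0) of 19232 genes tested were called in either direction, although 3929 had an unadjusted p below 0.05, among the members *Calb2* alone. DESeq2 called *Calb2* lower (-1.82, adjusted p = 0.000575), with 4.29% of genes called lower and 5.8% higher by that tool. All 8 fold changes were negative, as were those of 13 of the 14 reference markers and of 9992 of the 19232 genes. The median of the members was -0.34 against -0.03 over all genes, and 5 of 8 members (62.5%) were lower in both sections against 38.8% of all genes. Of the 14 reference markers, which overlap with no member, edgeR likewise called 0, the median was -0.20 and 3 had an unadjusted p below 0.05. Lower in both sections were 5 of the 14 (35.7%), near the share of all genes. The 3 with the highest mean CPM in neural tissue were the vesicular glutamate transporter *Slc17a7* (-1.04, adjusted p = 0.11), *Chn2* (-0.17, adjusted p = 0.87) and the neuronal nuclear protein *Rbfox3* (-0.71, adjusted p = 0.23), all by edgeR.

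**Figure D2:**
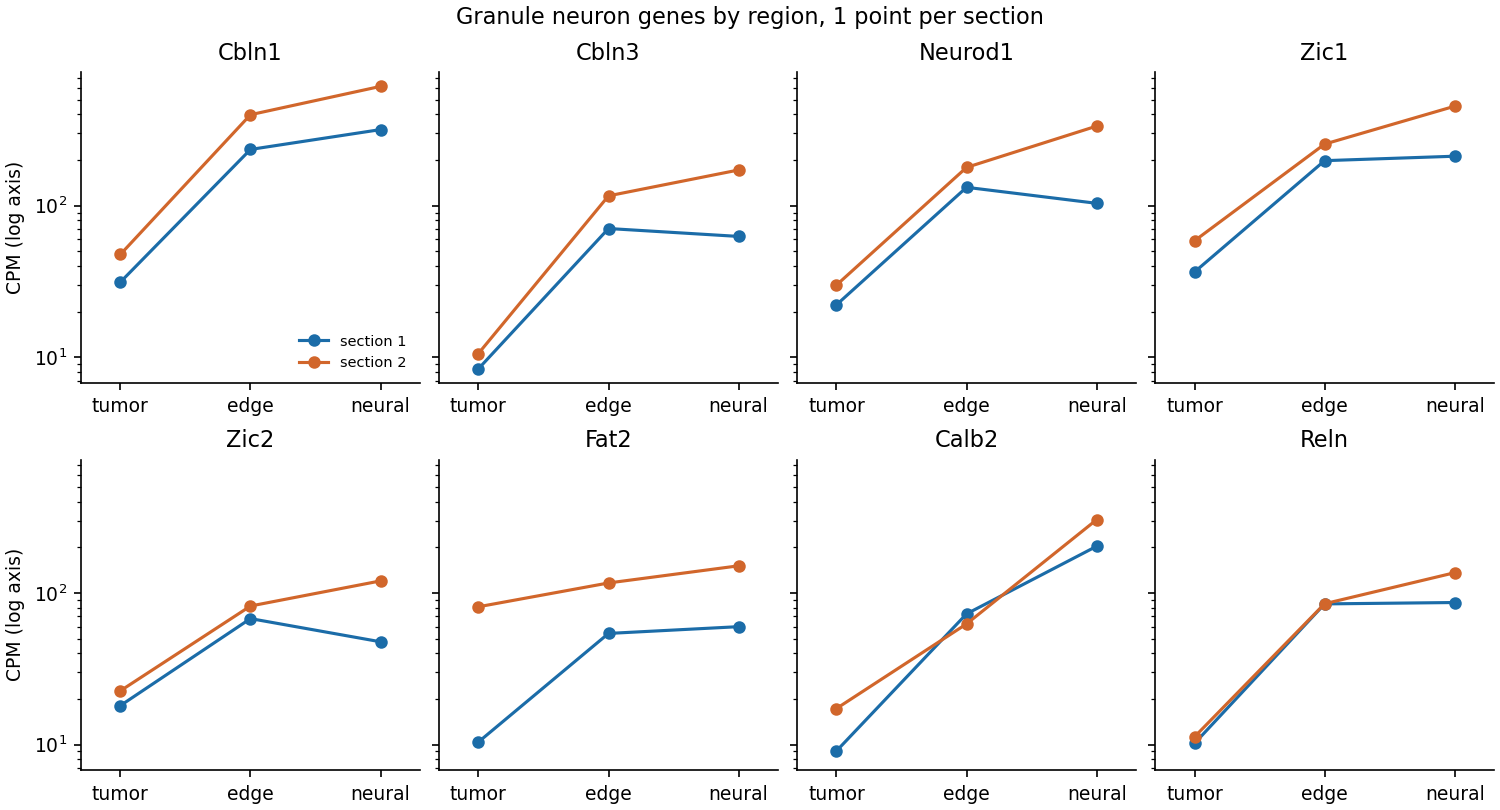
CPM (log axis) of the 8 measured members in tumor, edge and neural tissue, with 1 point per region and section joined within a section. Tumor levels lay below edge and neural levels in every panel, while *Fat2* in section 2 changed least, from 151 to 116 to 81.1 CPM.

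The edge and neural tissue differed in what they contained besides granule neurons. In unscaled CPM, brainstem markers summed to 107 at the edge of section 1 against 1353, and to 304 at that of section 2 against 860, with 5 of 5 lower at the edge each time. Macrophage markers summed to 9347 against 671 and to 8093 against 995, with 0 of 5 lower. Neural markers summed to 11905 against 30036, with 15 of 16 lower, and to 13737 against 24637, with 16 of 16 lower. The neural markers also helped to draw the tumor border, so lower neuronal transcripts next to it are not independent of that border. No marker of these 3 lists was at 0 at the edge, and the part of these cells in the member levels was not tested. With brainstem-marked spots left out of both regions, *Calb2* still had a log2 fold change of -1.38 (adjusted p = 0.20, edgeR). The other members all moved further below 0 in that run, from -0.92 for *Zic1* to -0.50 for *Zic2*, with none called. *Cbln3* went from -0.23 to -0.71, *Neurod1* from -0.32 to -0.80 and *Zic2* from -0.05. With the border from neural markers alone *Calb2* was called (-2.14, adjusted p = 0.049, edgeR). In these sums, fewer granule neurons per spot, less of a transcript per neuron and more UMIs from other cells cannot be told apart. Per spot with no scaling, the granule reference markers had 18.7 UMIs at the edge of section 1 against 9.22 in neural tissue. In section 2 these markers had 20.9 against 26.0.

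The edge was therefore also compared within all spots that met the granule-rich rule, including those that were also brainstem-marked, with 53 edge and 848 neural spots of section 1 and 126 and 1452 of section 2. Here *Calb2* had 165 CPM at the edge and 161 in neural tissue of section 1, but 113 and 372 in section 2, so the sections gave different pictures. The small difference in section 1 turned with scaling. Unscaled CPM of *Calb2* in these spots were 177 at the edge against 193 in section 1, and 117 against 388 in section 2. The log2 fold change over both was -0.94 (SE 0.42, adjusted p = 0.26, edgeR's quasi-likelihood test). Brainstem markers in these spots summed to 92.5 unscaled CPM at the edge against 656 in section 1 and to 158 against 574 in section 2. With brainstem-marked spots left out here as well, an alternative chosen after seeing the data, *Calb2* had 177 and 119 unscaled CPM at the edge against 173 and 417, and a log2 fold change of -0.83 (adjusted p = 0.42, edgeR). *Zic1* was lower at the edge in both sections, with 349 and 435 CPM against 435 and 669 and a log2 fold change of -0.48 (SE 0.22, adjusted p = 0.22, edgeR). *Cbln1* had 407 and 681 against 512 and 865 CPM, a log2 fold change of -0.34 (SE 0.25, adjusted p = 0.51, edgeR).

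The other 5 members had log2 fold changes between -0.25 and -0.12 in this comparison. *Cbln3*, *Neurod1* and *Zic2* were higher at the edge in section 1, by 0.059, 0.24 and 0.18 on the log2 scale, and lower in section 2, while *Fat2* and *Reln* were lower in both. The sign of *Cbln3* in section 1 depended on scaling, and those of *Neurod1* and *Zic2* on the spots. Unscaled, *Cbln3* was at 158 against 170 there, *Neurod1* at 288 against 273 and *Zic2* at 118 against 117. With brainstem-marked spots left out, these genes were lower at the edge of section 1, at 158 against 193, 288 against 309 and 118 against 130 unscaled CPM. No member was called, 0 of 8, by edgeR or by DESeq2, and only *Zic1* had an unadjusted p below 0.05. Over 18109 genes edgeR called 2.32% lower and 6.49% higher at the edge, and DESeq2 3.24% and 6.32%. The members' median was -0.25, that of the 14 reference markers -0.01 and that of all genes 0.06. Lower in both sections were 4 of 8 members (50%), 3 of the 14 reference markers (21.4%) and 28.3% of all genes. The reference list shares genes with the granule-rich rule, so it is not independent of the choice of these spots.

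In granule-rich spots *Zic1* was the only member called under any alternative run. With the border taken from neural markers alone its log2 fold change was -0.71 (adjusted p = 0.041, edgeR), and with the threshold 1 log2 unit higher it was -0.75 (adjusted p = 0.027, edgeR). Over all genes, those runs called 1571 and 1499 lower, against 421 in the main run. With brainstem-marked spots left out, the log2 fold change of *Zic1* was -0.63 (adjusted p = 0.027, edgeR), with 375 and 458 unscaled CPM at the edge against 578 and 794. That run also called more genes than the main one. Granule-rich edge spots also held more macrophage markers, with 5111 unscaled CPM against 560 and, for section 2, 5452 against 828. Purkinje markers were at 1941 against 2810 and 3278 against 4370. Markers of unipolar brush cells (*Eomes*, *Lmx1a*), which also make calretinin, were at 10.7 against 41.4 and 9.80 against 16.4, and those of Golgi cells, an inhibitory neuron of the granular layer, at 13.3 against 58.1 and 18.6 against 67.0. Each of these 2 lists held 2 markers with few UMIs. Over all spots, 1 of 2 unipolar brush cell markers was lower at the edge of section 2, and 2 of 2 in section 1. The part of all these cells in the member levels was not tested.

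**Figure D3:**
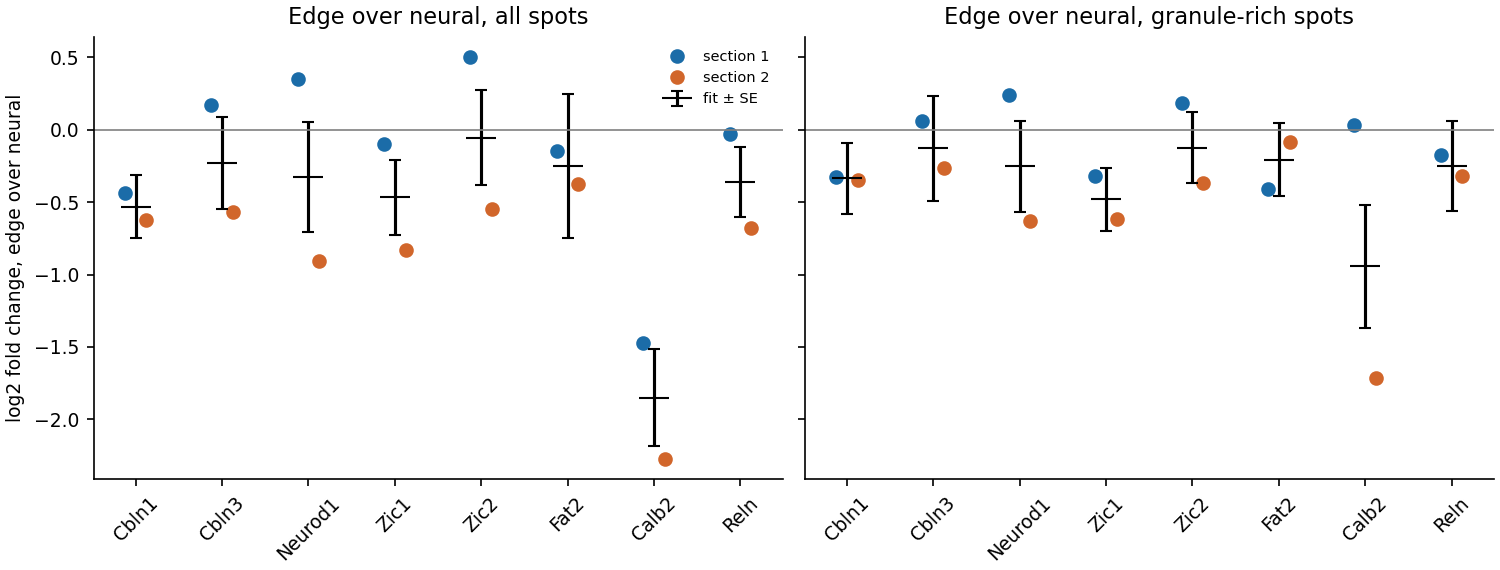
Log2 fold changes of edge over neural tissue for each member over all spots (left) and over granule-rich spots (right), with colored points for the sections and black bars for the fitted value ± SE. *Calb2* stood lowest over all spots, and in granule-rich spots its section 1 point sat at 0.037.

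Levels by array distance show how the edge gives way to the rest of the tissue, with 1 step being the spacing between neighboring spots. These values are unscaled CPM, given without a test because all distances of a section come from 1 animal. In section 2, *Cbln1* was at 269 unscaled CPM at 1 step, 470 at 2 steps, 575 at 3 steps and 674 at 4 steps, and stayed between 559 and 712 farther away. In section 1 it was at 216, 297, 264 and 324 at these steps, reached 727 at 7 to 9 steps and declined to 243 beyond 20. *Cbln1* in section 2 was thus lower at the first 2 steps than at any distance beyond, and in section 1 it had a late peak.

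*Cbln3*, *Neurod1*, *Zic1*, *Zic2*, *Fat2* and *Reln* had the same late peak at 7 to 9 steps in section 1. *Reln* went from 79.9 at 1 step to 311 unscaled CPM at 7 to 9 steps and 31.3 at 15 to 20 steps. Summed granule reference markers peaked at the same steps, with 989, 2288 and 674 unscaled CPM at those 3 distances. Of the spots at 7 to 9 steps in section 1, 98 of 173 were granule-rich, against 100 of 376 at 15 to 20 steps. Distance was taken in a straight line, which in both sections also crosses gaps in the tissue.

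Per 100 UMIs of the reference markers the peak was smaller. *Reln* had 8.08, 13.6 and 4.65 UMIs per 100 reference UMIs at 1, 7 to 9 and 15 to 20 steps of section 1. *Neurod1* had 14.4, 12.8 and 7.12 at those steps, and 11.2 at 1 step and 14.7 at 7 to 9 steps of section 2. The ratio of *Neurod1* to other granule genes therefore varied less along the distance than its level did.

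*Calb2* had its highest level at 15 to 20 steps in section 1, where the other 7 members peaked at 7 to 9, and beyond 20 steps in section 2, as did *Zic1* and *Reln*. In section 2 it went from 47.2 unscaled CPM (95% Poisson interval 36.3 to 60.4) at 1 step to 97.7 at 3 steps, 157 at 7 to 9 steps, 288 at 15 to 20 steps and 404 (394 to 414) beyond 20. In section 1 it was at 71.9 (56.3 to 90.6) at 1 step, 149 at 7 to 9 steps and 405 at 15 to 20 steps, then 213 beyond 20. Over all spots that met the granule-rich rule in section 2 it also went from 100.4 at 1 step to 211 at 7 to 9 steps and 486 beyond 20, where *Cbln1* was at 502, 1000.2 and 828. The reference marker *Slc17a7* also rose, at 167, 435 and 710 there, but it is part of the granule-rich rule and so not independent of the choice of these spots. The summed reference markers were at 1781, 3634 and 3418. In the granule-rich spots of section 1, with 15 to 20 spots at each of the first 3 steps, *Calb2* was at 174 (131 to 226) at 1 step. It was at 203 at 7 to 9 steps, then 241 at 10 to 14, 295 at 15 to 20 and 171 beyond 20.

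**Figure D4:**
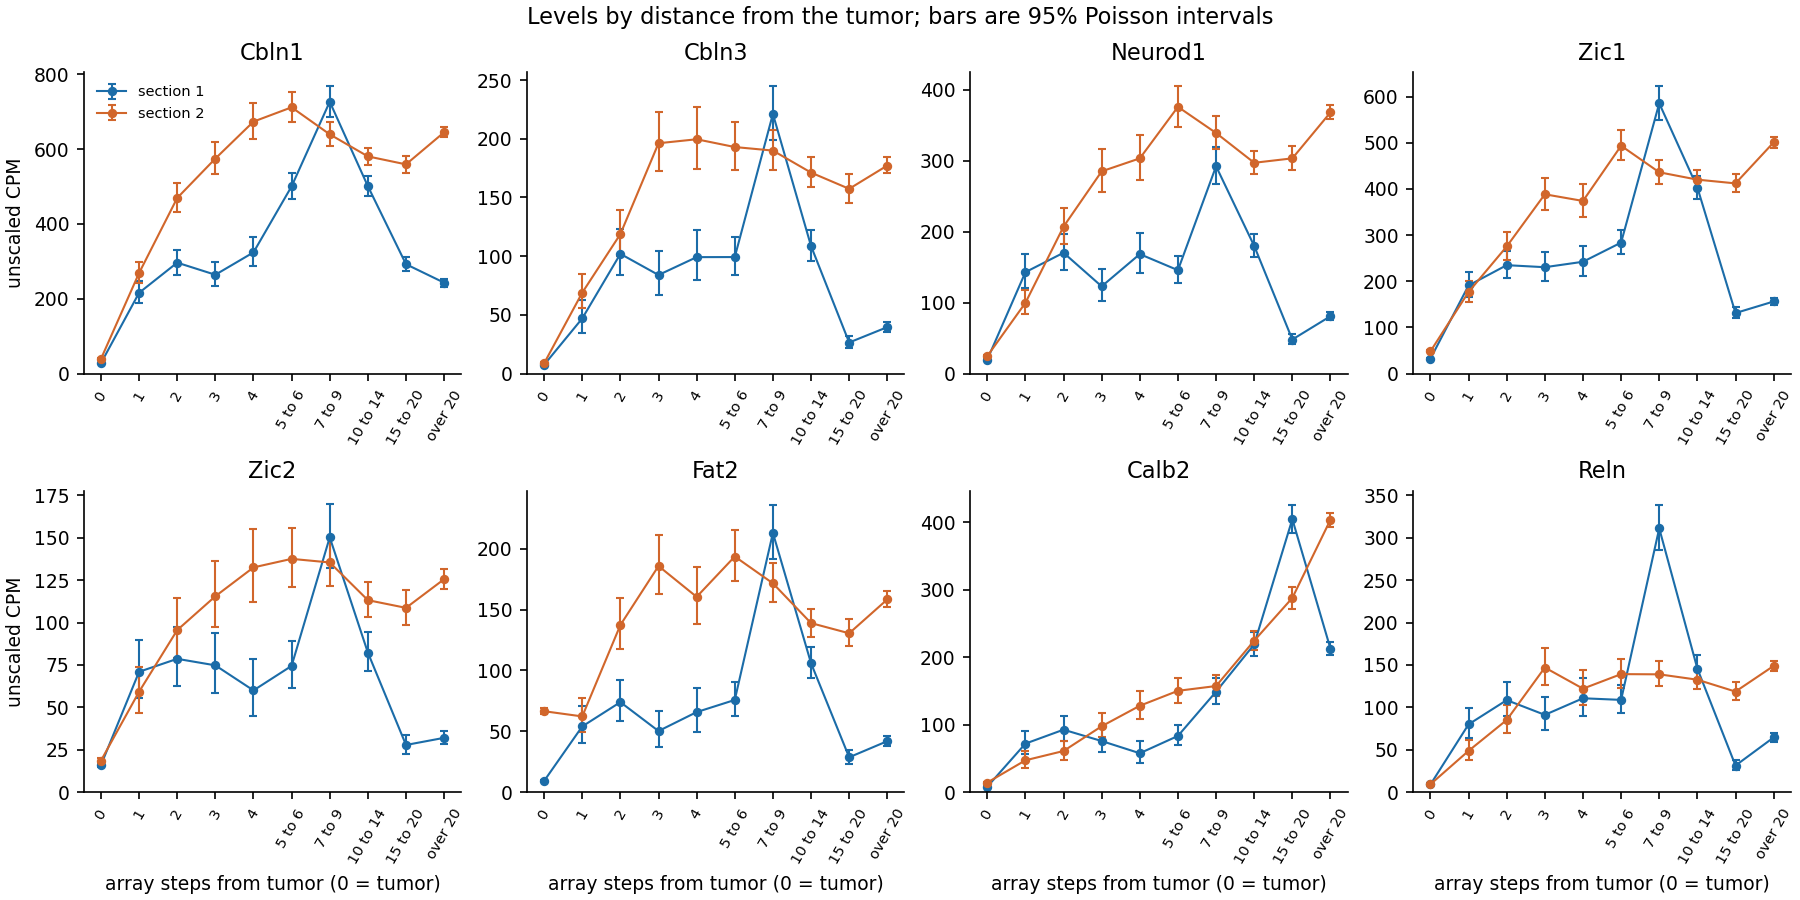
Unscaled CPM of each member by array steps from the tumor, where 0 is the tumor, in section 1 (blue) and section 2 (orange), with bars for 95% Poisson intervals, which cover counting error only. All members but *Fat2* in section 2 stepped up from the tumor to the first step, and the highest *Calb2* level lay at 15 to 20 steps in section 1 and beyond 20 in section 2.

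The tumor was compared with neural tissue and with the edge to give the levels of the granule neuron genes inside it. The source of their UMIs in the tumor was not tested. The border itself was drawn where neural markers gave way, so lower neuronal transcripts in the tumor are not independent of that border. Of *Cbln1*, 31.3 and 47.7 CPM were left in the tumor against 318 and 612 in neural tissue, a log2 fold change of -3.51 (SE 0.24, adjusted p = 0.0024, edgeR's quasi-likelihood test). *Cbln3* had 8.40 and 10.6 CPM, a log2 fold change of -3.47 (SE 0.35, adjusted p = 0.0034). *Calb2* had 9.07 and 17.3 CPM, 19.6-fold below neural tissue, at a log2 fold change of -4.29 (SE 0.37, adjusted p = 0.0026).

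*Reln* was 10.2-fold lower in the tumor, at 10.2 and 11.2 CPM, and *Neurod1* was 7.46-fold lower, at 22.2 and 30.0 CPM. *Zic1* was 6.75-fold lower, at 36.5 and 58.7 CPM, and *Zic2* was 3.83-fold lower, at 18.1 and 22.6 CPM. *Zic2* was called with an adjusted p of 0.014 in edgeR's quasi-likelihood test, *Neurod1* with 0.0079, *Zic1* with 0.0033 and *Reln* with 0.0024. The 2 *Zic* genes thus had smaller folds between tumor and neural tissue than *Cbln1*, *Cbln3* or *Calb2* as fitted, a difference between genes that was not tested. These folds are shares of all UMIs, and tumor spots held more UMIs than neural spots. In UMIs per spot, with no scaling, section 1 had 0.789 *Zic2* in the tumor against 0.443 in neural tissue and 0.969 *Neurod1* against 0.964, so the lower level of these genes there was not seen per spot. The other 6 members were lower per spot in the tumor of section 1, *Zic1* with 1.60 against 1.97. In section 2 *Fat2* was higher per spot in the tumor, with 2.44 against 1.68, and the other 7 were lower.

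In all, 7 of 8 members were called lower in the tumor than in neural tissue, where edgeR called 15% of genes lower and 15.1% higher, and 13 of the 14 reference markers were. Against the edge the same number, 7 of 8, was called lower, with log2 fold changes from -3.24 for *Cbln3* to -1.88 for *Zic2* (adjusted p = 0.037, edgeR), beside 6.19% of genes lower and 2.28% higher and 11 of 14 reference markers. The median over the members was -3.13 against neural tissue and -2.51 against the edge, and over all genes -0.07 and 0.04. Without TMM factors, scaled by library size, the median of all genes moved to -0.41 and -0.32, and the calls changed from 2904 higher and 2889 lower to 1998 and 4510 against neural tissue, and from 439 and 1190 to 211 and 1886 against the edge, while all 8 members stayed lower. DESeq2 called 15.2% lower and 20.8% higher against neural tissue, and 9.34% lower and 8.68% higher against the edge. *Zic2* was no longer called against the edge without the section as a block or, separately, with an edge of 1 to 2 steps, with adjusted p of 0.055 and 0.054 by edgeR.

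*Fat2* was the member not called. In section 1 it had 10.4 CPM in the tumor against 59.9 in neural tissue, and in section 2 it had 81.1 against 151. The log2 fold change was -2.47 in section 1 and -0.89 in section 2, and -1.61 over both (SE 0.51, adjusted p = 0.074, edgeR's quasi-likelihood test). Against the edge it was -2.32 and -0.52, and -1.36 over both (SE 0.52, adjusted p = 0.16, edgeR). For tumor against neural tissue it was called by DESeq2 (-1.56, adjusted p = 0.012), when scaled by library size (-1.95, adjusted p = 0.042, edgeR) and with brainstem-marked spots left out (-2.34, adjusted p = 0.027, edgeR).

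Depth inside the tumor, counted in steps from its border, separated *Fat2* from the other members. In section 1 all 8 members were lower 5 or more steps inside than at the first tumor step, given without a test, *Cbln1* from 139 to 18.0 unscaled CPM and *Fat2* from 53.6 to 6.70. In section 2 the other 7 members were lower too, *Cbln1* from 157 to 28.3, *Cbln3* from 35.9 to 5.99 and *Reln* from 37.1 to 6.12. *Fat2* in section 2 was at 62.2 unscaled CPM (95% Poisson interval 51.1 to 75.02) at the first tumor step and at 61.1 (58.4 to 63.9) 5 or more steps inside.

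The spots 5 or more steps inside the tumor numbered 626 in section 1 and 735 in section 2, with median UMIs of 57067 and 41923. A *Fat2* UMI was found in 138 of them (22.0%) in section 1 and in 587 (79.9%) in section 2. For the other 7 members the share was 17.9% to 50.3% in section 1 and 12.5% to 46.7% in section 2. Thus the share of *Fat2* was above those of all other members in section 2 and within their range in section 1.

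Where epithelial markers were higher within the deep tumor of section 2, 7 members were lower, with Pearson's r between -0.62 and -0.48 and Spearman's rho between -0.33 and -0.23 over 735 spots. The r of *Fat2* was -0.09 and its rho -0.05. In section 1, where these markers summed to only 47.8 unscaled CPM in the deep tumor against 11704 in section 2, r lay between -0.01 and 0.07 for all 8 members. These levels were taken per spot without smoothing. The spots of a section come from 1 animal, so these correlations are descriptions. With single epithelial markers of section 2, the r of *Fat2* reached 0.27 for the basal keratin *Krt17* and 0.24 for *Krt14* and was lowest for *Cldn4*, at -0.21, all weak.

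**Figure D5:**
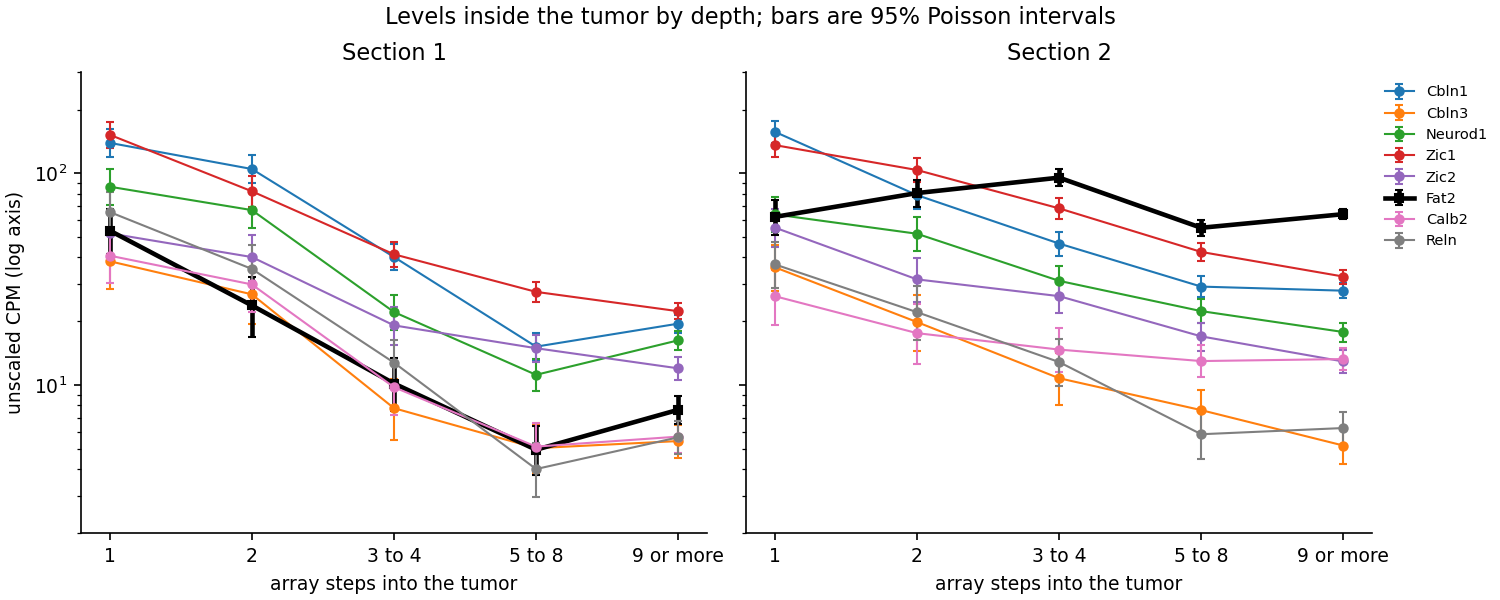
Unscaled CPM (log axis) of each member by steps into the tumor from its border, in section 1 (left) and section 2 (right), with bars for 95% Poisson intervals. *Fat2* (black) was lower inside like the others in section 1 and stayed between 55.2 and 95.3 in section 2.

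Of the 14 reference markers, *Cadps2*, a regulator of vesicle release, had a similar split. Its tumor levels were 14.2 CPM for section 1 and 96.0 for section 2, its neural levels 60.8 and 148, and it was the 1 reference marker not called lower (-1.22, SE 0.59, adjusted p = 0.18, edgeR's quasi-likelihood test). *Cadps2* is named here because its value was seen. The difference between the tumors of the sections rests on 1 section each and was not tested.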

How the data were processed

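The files hold UMI counts that the authors obtained with Space Ranger 2.1.1 against mm10 (submitters' processing notes), deposited without normalization for each spot under tissue, together with array positions. The probe panel targets chosen transcripts, so a level reflects its probes. The study's clusters and region of interest were not used here, and regions were redrawn. The members, lists and tests were chosen with earlier results of these data known, and named genes follow the rule of members, reference markers of highest level and genes of most similar pattern.

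Spots needed 500 UMIs and 10 genes. The log2 ratio of epithelial and stromal to neural markers, averaged over a spot and its neighbors, was split by Otsu's threshold in each section, and groups of at least 20 spots formed the tumor. In section 2, 9 spots above the threshold outside the tumor were left out. The sections share 3096 barcodes, which are the fixed positions of the array. Summing gave 1 library for each region of each section, with 3046393 to 41953923 UMIs (TMM factors 0.820 to 1.12), and with 1124071 to 17898988 in the granule-rich fit. Fits used edgeR 4.0.16 in R 4.3.3 (filterByExpr, robust glmQLFit, glmQLFTest) with the section as a block, because all regions of a section come from 1 animal, leaving 2 and 3 residual degrees of freedom. Pairing was checked by the common dispersion, which the block lowered from 0.132 to 0.0901, and in the granule-rich fit from 0.0572 to 0.0271. Calls needed an adjusted p below 0.05. The labels give the sections as replicates without naming their animals. With the block, p-values measure how far region differences vary between these sections, which may in part be technical. Tumor, edge and neural libraries share 1 estimate of that spread. The edge test therefore also draws on the 2 tumors, whose markers differed, while the granule-rich fit held no tumor library. Within-section fold changes used 0.5 CPM as pseudocount. Alternatives, including DESeq2 1.42.0, are given in the closing section. The fits were also run on simulated counts drawn with 1 common dispersion for all genes, and no result here rests on that run. Counting error is small in the libraries summed by region, where precision is set by the 2 sections. It is larger at single distances with few spots. Levels, distances and exact Poisson intervals at the 95% level, which cover counting error only, were computed in Python 3.11.15 with scipy 1.17.1. Gene coordinates and promoter windows are RefSeq's.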

Additional observations from a re-analysis of the deposited data

How the results depend on the processing

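Some results depended on how the regions were drawn, and the cause was not tested. The calls of members for tumor against neural tissue were kept in every alternative run, apart from *Fat2*, which gained a call in 3, and all genes called there numbered 5085 to 6939, against 5793. *Calb2* gained a call for edge against neural tissue with DESeq2 and with the border from neural markers. Called genes over all tested numbered 0 for edge against neural tissue, 610 with the border from neural markers and 1942 with DESeq2. For tumor against edge they numbered 1629, with 785 and 3467 under those alternatives, where *Neurod1* and *Zic2* lost their calls with the border from neural markers (adjusted p = 0.062 and 0.060, edgeR) and with a threshold 1 log2 unit higher (0.053 and 0.056, edgeR). For granule-rich spots they numbered 1597, and 901 with no replicate block, 2517 (946 higher, 1571 lower) with the border from neural markers, 2534 (1035 higher, 1499 lower) and 612 with a threshold 1 log2 unit higher and lower, and 596 with a stricter choice of granule-rich spots by rank. The paired analysis with the section as a block is the main one, and leaving the block out changed no other member's call than that of *Zic2* against the edge. Signs of small edge differences turned. For edge against neural tissue, an edge of 1 to 5 steps gave *Cbln3* 0.027 and *Zic2* 0.087, and a lower threshold gave *Zic2* 0.097. Leaving out each section in turn leaves 1 section, so values carry no test, and gave -0.56 to 0.17 for *Cbln3*, -0.90 to 0.35 for *Neurod1* and -0.55 to 0.50 for *Zic2*. In granule-rich spots, an edge of 1 to 5 steps gave *Cbln3* 0.0071, and that stricter choice gave *Cbln3* 0.14, *Zic2* 0.056 and *Reln* 0.011. Leaving out each section gave -0.27 to 0.059 for *Cbln3*, -0.63 to 0.24 for *Neurod1*, -0.37 to 0.18 for *Zic2* and -1.72 to 0.037 for *Calb2*. Granule-rich spots chosen without *Slc17a7*, an alternative chosen after seeing the data, gave 1366 called genes and 0 called members. Leaving brainstem-marked spots out of them, also chosen after seeing the data, gave 2095 called genes, and *Zic1* among them.

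In unscaled CPM, the median log2 ratio of the 8 members at 1 to 3 steps over 4 or more was -0.08 in section 1 and -0.56 in section 2. Over granule-rich spots it was -0.23 and -0.37. Scaled by TMM, *Cbln3*, *Neurod1*, *Zic2* and *Calb2* were higher at the edge in the granule-rich spots of section 1. In UMIs per spot without scaling, over all spots, the median ratio was 0.91 and -0.20, where edge spots held more UMIs of all genes. With 2 sections, only differences well above their spread could be called.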
